A study of Mus musculus with 2 samples.

Results

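The cytoplasmic ribosomal protein genes encode the proteins of the large (Rpl, Rplp) and small (Rps, Rpsa) subunits of the ribosome that translates messenger RNA in the cytosol. They were taken by symbol from the protein-coding genes of the GENCODE annotation: Rpl or Rps followed by a number and at most 1 letter a, l or x, together with Rplp0, Rplp1, Rplp2 and Rpsa. The rule found 80 of 21938 protein-coding genes, 49 of the large and 31 of the small subunit. It leaves out genes whose products also belong to or bind the cytoplasmic ribosome under other symbols, among them Rps3a1, Rpl36al, Fau and Rack1, and these are given separately.

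Ribosomal proteins are made in near equal amounts and assembled with ribosomal RNA in the nucleolus. Their genes are active in practically every cell, so they are a standard example of constitutive promoters with many CpG dinucleotides. Transcription of most of them starts at a cytosine within a run of pyrimidines, and the run at the start of the messenger RNA, the terminal oligopyrimidine tract, lets the mTOR pathway adjust their translation together. Dividing progenitors, which make up much of the embryonic retina, need a large supply of new ribosomes.

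The data were DNase-seq, in which DNase I cuts accessible chromatin, from a single group of 2 biological replicates: retina of B6NCrl mouse embryos at embryonic day 14.5, with males and females pooled and no allele or treatment named. The replicates share a donor label and differ in their biosample labels, and replicate 1 was also sequenced on an instrument model that replicate 2 was not, so replicate and instrument cannot be told apart. There is no other condition, so no contrast and no p-value can be given, and the spread between the libraries is all the replicate error there is.

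Replicate 1 held 165269 distinct peaks and replicate 2 held 219308, each 150 bp wide with a deposited score between 1 and 150. Median scores of 29 and 48 differed between the libraries, the unit of the score is not stated, and the read depth is unknown, so each score was turned into a percentile rank among all peaks of its own library, with 100 for the strongest. A gene is called open in a library where a peak overlaps the window of 1 kb on either side of any of its annotated transcription start sites (TSS), and its promoter rank is the rank of the strongest such peak. As a check of the tissue label, 9 of 9 retinal marker genes were open in both libraries, against 0 of 3 lens, 0 of 4 microglial, 0 of 3 erythroid, 1 of 3 pigment epithelium (Mitf) and 1 of 3 endothelial (Kdr) markers.

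Promoters on which the results turn are shown first, for 6 open members with a pyrimidine run at the start or an ETS motif and for the 3 members that were not open. Each line holds the 120 bases before and the 30 bases from the RefSeq start (GRCm38.p6, 5′ to 3′ on the strand of the gene). Capitals mark a run of at least 8 pyrimidines at the start and each match to the ETS motif CCGGAAG on either strand.
Rpl15, chr14:18270957-18271106, minus strand: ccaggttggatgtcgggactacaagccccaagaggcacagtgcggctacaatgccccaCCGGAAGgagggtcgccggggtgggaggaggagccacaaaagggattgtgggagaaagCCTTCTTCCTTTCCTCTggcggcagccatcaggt
Rpl14, chr9:120571397-120571546, plus strand: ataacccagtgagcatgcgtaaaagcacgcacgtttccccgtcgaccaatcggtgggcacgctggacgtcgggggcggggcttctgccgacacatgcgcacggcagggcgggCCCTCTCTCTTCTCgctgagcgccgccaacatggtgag
Rpl27a, chr7:109519075-109519224, plus strand: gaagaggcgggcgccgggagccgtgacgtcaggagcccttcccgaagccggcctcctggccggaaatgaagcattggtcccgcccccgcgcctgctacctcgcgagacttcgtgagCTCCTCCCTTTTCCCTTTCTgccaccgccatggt
Rplp2, chr7:141447531-141447680, plus strand: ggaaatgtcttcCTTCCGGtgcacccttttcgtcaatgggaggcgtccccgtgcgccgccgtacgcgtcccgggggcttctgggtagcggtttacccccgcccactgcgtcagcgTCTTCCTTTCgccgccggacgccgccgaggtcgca
Rps6, chr4:86857338-86857487, minus strand: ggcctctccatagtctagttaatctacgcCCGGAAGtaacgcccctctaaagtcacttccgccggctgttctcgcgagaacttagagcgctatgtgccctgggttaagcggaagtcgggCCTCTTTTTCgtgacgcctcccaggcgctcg
Rpl38, chr11:114668460-114668609, plus strand: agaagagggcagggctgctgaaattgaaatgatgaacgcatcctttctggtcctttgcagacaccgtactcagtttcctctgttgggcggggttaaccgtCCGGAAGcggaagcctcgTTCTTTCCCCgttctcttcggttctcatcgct
Rpl39l, chr16:10170108-10170257, plus strand: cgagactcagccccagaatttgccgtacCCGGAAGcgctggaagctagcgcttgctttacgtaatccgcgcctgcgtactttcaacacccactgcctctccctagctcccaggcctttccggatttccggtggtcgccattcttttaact
Rpl10l, chr12:66284372-66284521, minus strand: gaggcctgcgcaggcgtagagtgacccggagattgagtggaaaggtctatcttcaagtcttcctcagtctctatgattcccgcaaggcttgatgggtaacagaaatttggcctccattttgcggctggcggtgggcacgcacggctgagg
Rpl3l, chr17:24727706-24727855, plus strand: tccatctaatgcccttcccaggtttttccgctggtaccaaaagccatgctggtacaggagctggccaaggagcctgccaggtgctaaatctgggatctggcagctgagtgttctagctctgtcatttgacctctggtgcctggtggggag

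In both libraries 77 of 80 members were open, 96.2% (exact Clopper-Pearson 95% interval 89.4 to 99.2), where 68.8% of all protein-coding genes were open in both. Per library the count was 77 in replicate 1, beside 69.7% of all genes, and 77 in replicate 2, beside 71.3%. The same 77 genes made up each count. Members had a median of 6 distinct annotated starts, beside 3 over all protein-coding genes, so more windows were searched per member. The part of the number of starts in these shares and in the promoter ranks was not tested. All 31 small subunit genes were open and 46 of 49 large subunit genes were.

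The 3 members without a promoter peak in either library were Rpl3l, Rpl10l and Rpl39l, each a copy of another member. Rpl3l is the copy of Rpl3 that striated muscle uses, and Rpl10l and Rpl39l are copies of the X-linked Rpl10 and Rpl39 that are used in the testis. Their parent genes were all open: Rpl3 ranked 98.30 and 99.32, Rpl10 ranked 96.32 and 95.19, and Rpl39 ranked 90.80 and 95.91 in replicates 1 and 2. No hotspot, the authors' wider call of enriched cutting, lay at the 5′ end of any of the 3 either.

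The promoters of the closed copies did not share a single base composition. Around Rpl10l (chr12, minus strand) the ratio of observed to expected CpG, measured over the 500 bp before and after the 5′ end, was 0.722, close to the median of 0.782 over the 80 members. For Rpl39l (chr16, plus strand) the ratio was 0.548, and the sequence shown above holds an ETS match. Rpl3l (chr17, plus strand) had a ratio of 0.172, among the lowest of the members.

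A further copy, Rps27l, which responds to p53, was open in both libraries with ranks of 97.30 and 98.22. Its parent Rps27 ranked 96.71 and 99.12, so the copy was higher in replicate 1 and the parent in replicate 2. Rps4l, a copy of the X-linked Rps4x, is a transcribed processed pseudogene in the annotation and so is no member; it had promoter peaks that ranked 82.16 and 91.12. Rps4x itself ranked higher in both libraries, at 93.65 and 96.37.

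Peak strength at the open members was high and narrow in range. Their median promoter rank was 97.5 in replicate 1 and 98.2 in replicate 2 (97.9 ± 0.502, SD, n = 2), where the median over all open protein-coding genes was 95 and 95.9. In deposited scores the medians were 120 and 135 for the members and 107 and 125 for all open genes. A member at the median stood above 70.9% of the other open genes in replicate 1 and above 73.1% in replicate 2.

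In percentile points the members differed from all open genes more at the low end than at the median. Their 10th percentile of rank was 95 and 95.3, where that of all open genes was 68.6 and 69.4. In both libraries 76 of 80 members (95%) ranked 90 or more, beside 47.7% of all protein-coding genes. Ranks of 99 or more in both were found for 10 of 80 members, beside 1209 of 21938 protein-coding genes (5.51%). Per library such ranks were found for 12 and 26 of the 77 open members. Over all open genes they were found for 1847 of 15295 and 2331 of 15652. No open member ranked below 89.56 in replicate 1 or below 92.84 in replicate 2.

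**Figure D1:**
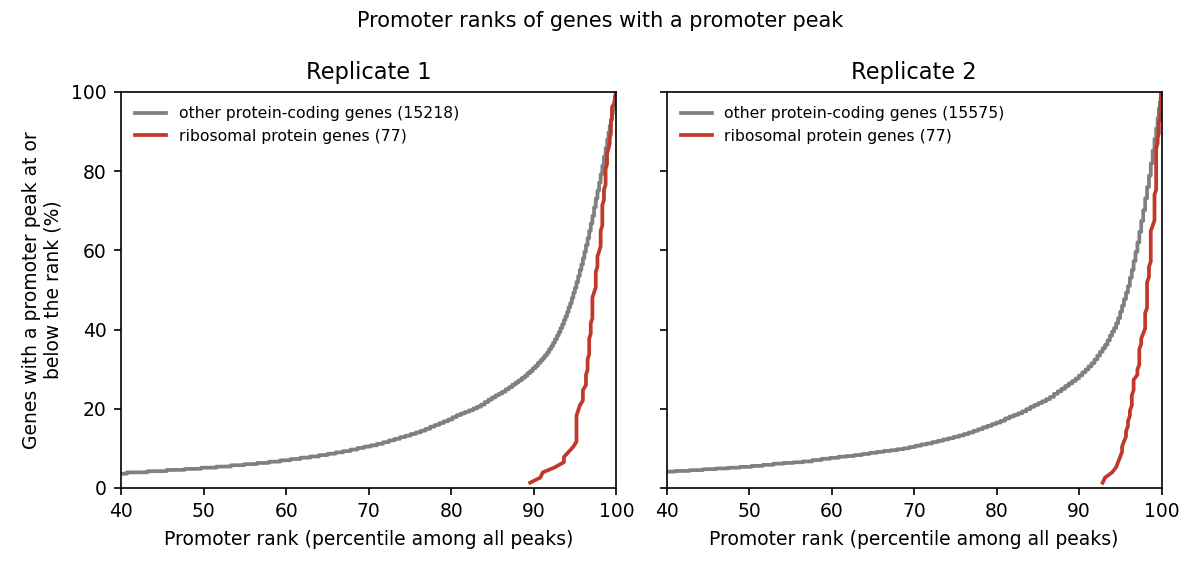
Cumulative share of genes (vertical axis, %) with a promoter rank at or below the value on the horizontal axis (percentile among all peaks, drawn from 40), for the open ribosomal protein genes (red) and the other open protein-coding genes (grey) in each library. The red lines start at 89.56 and 92.84, while the grey lines have long tails of low ranks.

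Base composition differed as well. The members had a median CpG ratio of 0.782 beside 0.553 over all protein-coding genes, and 56 of 80 lay in the top 3 of 10 equal bins of that ratio. In these bins 99.1% and 99.2% of the other genes were open as well. The median rank of the other open genes there was 97.10 and 97.51, beside 97.51 and 98.22 for the 56 members. The difference between members and other genes with promoters rich in CpG was 0.42 and 0.71 percentile points. The 10th percentile of rank there was 95.2 and 95.5 for the members and 89.6 and 90 for the other open genes. The part of base composition in the ranks was not tested.

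The large subunit genes had median ranks of 97.1 and 98.1 and the small subunit genes 97.5 and 98.4. These medians differed by less between subunits than each did between libraries.

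Among the large subunit genes the highest rank in the lower of its libraries belonged to Rpl15, with scores of 135 and 145 and ranks of 99.81 and 99.92. Its strongest peak was at the same place in both libraries (chr14:18271036-18271185, mm10), in a window shared with the neighbouring gene Nkiras1. Rpl27a, whose mutation causes the sooty foot ataxia phenotype in mice, had scores of 140 and 141 and ranks of 99.97 and 99.50. Its strongest peaks, chr7:109518996-109519145 and chr7:109519016-109519165, overlapped and lay just upstream of the start.

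Rpl27 followed with ranks of 99.47 and 99.86, and its strongest peak was centred 7 bp upstream of the 5′ end in both libraries. Rpl18 ranked 99.20 and 99.65, with the strongest peak at a different start of the gene in each library. Rplp0, the base of the stalk that recruits elongation factors, ranked 99.20 and 99.32.

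At the low end of the large subunit were Rpl39, Rpl6 and Rpl26. Rpl39, a short protein that lines the exit tunnel for the nascent chain, had scores of 88 and 125 and ranks of 90.80 and 95.91. Rpl6 ranked 91.08 and 94.96. Rpl26, which also binds the messenger RNA of p53, ranked 92.56 and 97.05. All 3 were higher in replicate 2.

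In the small subunit the highest members were Rps15 and Rps19. Rps15 had scores of 130 and 140 and ranks of 99.34 and 99.32. Rps19, mutated in Diamond-Blackfan anaemia in people and in a dark skin mutant of mice, had scores of 131 and 140 and ranks of 99.47 and 99.32. These ranks differed between libraries by less than the median absolute difference over members, 1.03.

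Rps16 ranked 99.34 and 99.12, Rps29 ranked 99.05 and 99.86, and Rps13 ranked 98.70 and 99.65. The lowest was Rps23, a protein of the decoding centre, with scores of 84 and 113 and ranks of 89.56 and 92.84 for a peak at the same position in both libraries (chr13:90922816-90922965). It was the lowest open member of all in each library. Rps4x, as given above, was also among the lowest, at 93.65 and 96.37.

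**Figure D2:**
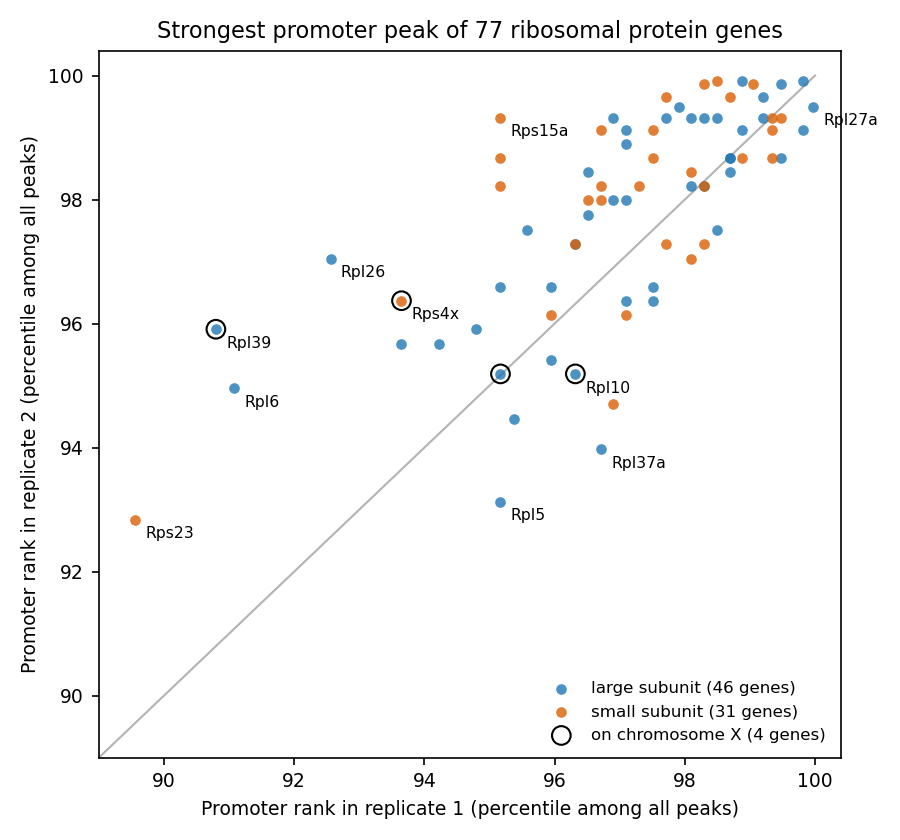
Promoter rank of each of the 77 open members in replicate 1 (horizontal) and replicate 2 (vertical), as percentiles among all peaks of the library, with large subunit genes in blue, small subunit genes in orange, the 4 members on chromosome X circled and the line of equal ranks in grey. Rps23 lies lowest at 89.56 and 92.84, and Rpl39, Rpl26 and Rps15a lie farthest above the line.

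The stalk proteins Rplp1 and Rplp2, which bind Rplp0 as dimers and contact the elongation factors, ranked 98.10 and 98.22 and 96.90 and 99.32. Rpsa, a small subunit protein that is also known as a laminin receptor, ranked 97.71 and 99.65. All 4 of these genes stood above the median of all open genes in both libraries.

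The members with a role in the p53 response or with known mouse mutants were all open. Rpl5 and Rpl11, which with the small ribosomal RNA of their subunit bind Mdm2 when ribosome assembly fails, differed: Rpl5 ranked 95.17 and 93.13 and Rpl11 97.10 and 98.90. Rpl24, whose belly spot and tail mutation affects the retina and the tail, ranked 95.17 and 96.59. Rpl38, the gene of the tail short mutant, ranked 97.10 and 97.99.

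Rps6, the subunit protein phosphorylated downstream of mTOR, ranked 97.10 and 96.14. Rps7 ranked 95.17 and 98.22. Rps20, a further dark skin locus, ranked 98.10 and 97.05. Rpl5 lay below the median of all open genes in replicate 2, as Rpl26 did in replicate 1.

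The libraries ordered the members only roughly alike. Of the 77 open members 50 (64.9%) ranked higher in replicate 2, beside 67.9% of the other genes open in both libraries. The median absolute difference in rank was 1.03 for the members and 1.43 for the other genes. The widest gaps were at Rpl39, then Rpl26, Rps15a (95.17 and 99.32), Rpl6 and Rps26 (95.17 and 98.67), all with the higher rank in replicate 2. Neighbours in the order of ranks therefore do not differ beyond the spread between libraries.

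The related genes Rps3a1, Rpl36al, Fau and Rack1 outside the symbol rule were open in both libraries. Rps3a1 ranked 98.30 and 97.51, Rpl36al 99.67 and 99.77, Fau 99.67 and 99.12, and Rack1 95.37 and 97.99. With the related genes added and the copies left out, 81 of 81 genes had a promoter peak in both libraries. All members that were not open are among the copies left out, so this count follows from the choice of genes.

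Other gene groups of the translation machinery were open in full. All 78 mitochondrial ribosomal protein genes, which serve the separate ribosome of the mitochondrion, were open in both libraries with median ranks of 96.1 and 97.0. All 19 protein-coding genes in a list of translation factors and other messages with terminal oligopyrimidine tracts were open, with median ranks of 98.3 and 99.1, and so were the non-coding hosts Gas5 and Snhg1. All 20 ribosome biogenesis genes were open with median ranks of 97.8 and 98.7. The members' medians of 97.5 and 98.2 lay between those of the mitochondrial genes and those of the other lists, and no difference between lists was tested.

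Genes named as pseudogenes of ribosomal proteins were rarely open, and the share over other pseudogenes is not given here. They were taken by name among genes that are not protein-coding. The set was not limited to processed pseudogenes, which are copies of messenger RNA inserted elsewhere in the genome. Of 282 annotated Rpl and Rps pseudogenes 17 (6.03%) had a peak in their promoter window in replicate 1 and 22 (7.80%) in replicate 2, and 15 (5.32%) had one in both. The median rank of the open ones was 66.9 and 48.0. By the lower of the library ranks the highest were Rpl31-ps20 at 92.8 and 95 and Rpl34-ps1 at 90.8 and 92.8. How reads from near-identical copies were treated by the authors is not given in the sources used here.

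Strongest peaks lay close to the start of the gene. Their centre was at a median of 7 bp upstream of the 5′ end of the gene in both libraries, beside a median of 2 bp downstream and 7 bp upstream for all open genes. It lay within 150 bp of the 5′ end in 58 members (75.3%) in replicate 1 and 57 (74.0%) in replicate 2, beside 59.6% and 59.0% of all open genes. Measured to any annotated TSS of the gene, it lay within 150 bp in 74 of 77 in each library. The matching share over all open genes, which have fewer annotated starts at the median, is not given here.

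**Figure D3:**
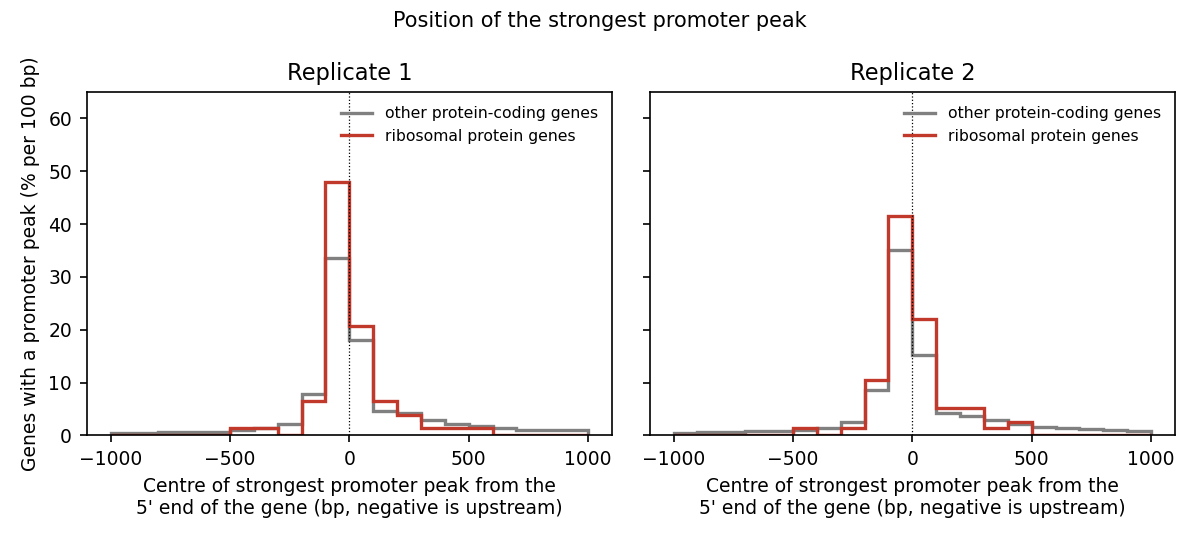
Share of open genes (vertical axis, % per 100 bp) by the distance in bp from the 5′ end of the gene to the centre of its strongest promoter peak, for ribosomal protein genes (red) and the other open protein-coding genes (grey) in each library; peaks at starts more than 1000 bp away are not drawn. The tallest red bar is the 100 bp just upstream of the 5′ end in both libraries.

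Several of the larger distances were at genes with another annotated start close to the peak. In Rps24 the strongest peak lay 3546 and 3526 bp downstream of the 5′ end but 10 and 30 bp from an annotated TSS. Rps2 showed 1915 and 1875 bp against 32 and 72 bp, and Rps10 showed 1378 and 1358 bp against 47 and 67 bp. In these genes the strongest peak was at an inner start in both libraries, although the 5′ end of Rps24 also lay in a hotspot in each.

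Peaks away from every annotated start of the gene were few. The strongest peak of Rpl4 was centred 404 and 424 bp upstream, in a window shared with Zwilch. That of Rpl7 was centred 349 and 189 bp upstream, in a window shared with Rdh10, and the strongest peaks of the libraries did not overlap there. The remaining cases were Rpl37 in replicate 1, at 154 bp upstream, and Rps19 in replicate 2, at 260 bp upstream.

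Between libraries the position was reproducible to within a fraction of a peak width. The strongest peaks of the libraries lay within 40 bp of each other in 71 of 77 members and at the identical position in 30, with no share over all open genes given here. Of all peaks in members' promoter windows, 200 in replicate 1 and 206 in replicate 2, 80.5% and 76.7% were overlapped by a peak of the other library, beside 79.1% and 67.8% for all protein-coding promoter windows. A member had a median of 2 promoter peaks in replicate 1 and 3 in replicate 2, the same as all open genes.

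The members with most promoter peaks in the lower library were Rpl3, Rpl31 and Rps14. Rpl3 and Rpl31 had 5 in each library, and Rps14 had 5 and 7. At the other end 21 and 17 open members (27.3% and 22.1%) had 1 peak only, beside 26.3% and 19.5% of all open genes. Rpl5 differed most between libraries, with 8 promoter peaks in replicate 1 and 2 in replicate 2.

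Some members share their open site with a neighbour, so that the peak cannot be credited to either gene alone. In each library the strongest peak of 15 members lay in the window of another protein-coding gene, among them Rpl15 (Nkiras1), Rpl18 (Sphk2), Rpl35a (Iqcg), Rpl9 (Lias), Rps18 (Vps52) and Rps28 (Ndufa7). No share over all open genes is given here, so this count does not set the members apart. The 62 members whose strongest peak lay in no other gene's window had median ranks of 97.5 and 98.4, and the others 96.9 and 98.0. A divergent protein-coding 5′ end within 1 kb was annotated for 8 members (10%), beside 6.78% of all protein-coding genes. The median ranks were thus as high without the shared windows.

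Introns of 29 members host snoRNA genes, 56 in all, which guide the modification of ribosomal RNA, and the share of hosts over all genes is not given here. Rpl4 holds 5 and Rpl13a holds 4. The hosts had median ranks of 97.5 and 98.0 and the other open members 97.2 and 98.3. The sign of that difference changed from one library to the other.

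Hotspots gave a wider view of the same sites. The 5′ end of 73 members in replicate 1 and 74 in replicate 2 lay in a hotspot, and that of 72 in both, beside 57.9% of all protein-coding genes. These hotspots had a median width of 984 and 1071 bp, where those at the 5′ ends of all genes had 1164 and 1459 bp. Their deposited −log10 false discovery rate was at the ceiling of 100 in 100% and 97.3%, beside 92.7% and 94.7% of all genes with a hotspot there, so it could not rank them.

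Widths varied widely among the members. The hotspot at Rps29 was 159 bp wide in both libraries and that at Rpl5 299 and 305 bp. Rpl7 had the widest, at 2355 and 2584 bp. Rps29 was among the highest ranking genes, so a narrow hotspot did not go with a weak peak there.

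Motif matches were counted on both strands in the 300 bases from 250 before to 50 after the 5′ end of the gene, each motif on its own, so that matches of different motifs may overlap. The ETS motif CCGGAAG was found in 22 of 80 members (27.5%), beside 10.8% of all protein-coding genes and 14.5% of the other open genes. The YY1 motif AAGATGGC was in 5 members (6.25% beside 2.92% of all and 3.73% of the other open genes), the CREB motif TGACGTCA in 5 (6.25% beside 2.43% and 3.12%) and the E-box CACGTG in 11 (13.8% beside 7.75% and 9.58%). For GGGCGG, bound by SP1, the share was 45% beside 43.0% of all genes and 58.5% of the other open genes.

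CCAAT, the core of the NFY site, was found in 31.2% of members and 39.0% of all genes, and the NRF1 motif TGCGCATGC in 2.50% and 2.23%. TATAAA on the sense strand within 40 to 20 bases before the 5′ end was in 0 of 80 members, 2.23% of all genes and 0.986% of the other open genes. In 22 members (27.5%) none of the searched motifs was present, beside 27.7% of all genes and 19.0% of the other open genes. A match is only a run of letters and does not show that a factor was bound.

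The strongest peak itself, a window placed by the data but chosen among peaks near annotated starts, gave a like picture for ETS. It held CCGGAAG in 27 of 77 open members (35.1%) in replicate 1 and 25 (32.5%) in replicate 2, beside 12.7% and 12.3% of the other open genes. Members with the motif in that peak had median ranks of 97.10 and 98.22 and members without it 97.71 and 98.45. These medians differed by 0.61 and 0.23 points, the latter less than the SD between libraries. For SP1 the medians with and without the motif were 98.10 and 96.71 in replicate 1 and 98.45 and 98.22 in replicate 2, and for NFY 97.81 and 97.10 and then 99.12 and 98.11.

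**Figure D4:**
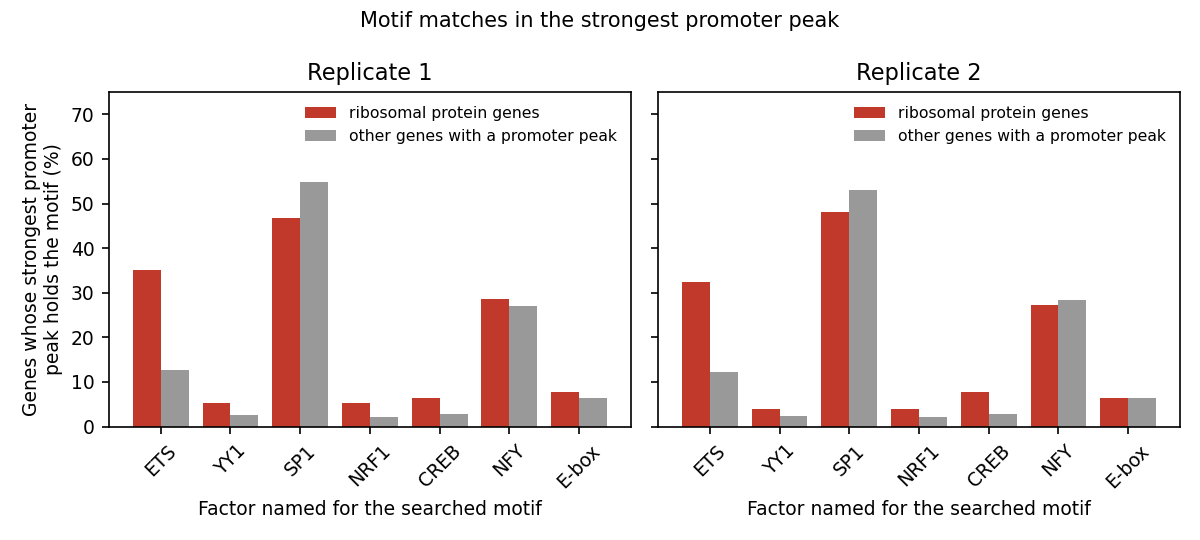
Share of genes (vertical axis, %) whose strongest promoter peak holds a match to the motif of each factor, for the open ribosomal protein genes (red) and the other open protein-coding genes (grey) in each library. ETS shows the widest gap, 35.1% beside 12.7% in replicate 1, and the SP1 share is lower in the members.

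The pyrimidine run was read on the sense strand as the longest run of C or T overlapping the 10 bases on either side of the 5′ end. A run of at least 8 was found in 26 of 80 members (32.5%), beside 14.0% of all protein-coding genes. At least 10 were found in 13 members (16.2% beside 6.99%) and at least 6 in 36 (45% beside 30%). Since the GENCODE 5′ end lay away from the strongest peak in some genes, the same was read at the starts of the RefSeq table, which held 60 of the 80 members.

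At the RefSeq starts 28 of 60 members (46.7%) had a run of at least 8, beside 16.3% of the 16522 genes matched. A run of at least 10 was in 22 (36.7% beside 8.36%), and ETS matches were in 25 (41.7% beside 13.4%). Rpl27a has the longest run of those shown above, with 20 bases, followed by Rpl15 with 17 and Rpl14 with 14. Among the closed copies the run was 7 bases in Rpl39l and 5 in Rpl10l and Rpl3l, all under the limit of 8.

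Away from promoters, a peak outside every promoter window was credited to whichever protein-coding TSS was closest, a rule that says nothing of the target. A member had a median of 1 distal peak in replicate 1 and 2 in replicate 2 (1.5 ± 0.707, SD, n = 2), beside 2 in each library over all protein-coding genes. At least 1 distal peak in both libraries was found for 53 of 80 members, beside 65.1% of all protein-coding genes, while 22 members (27.5%) had none in either, beside 25% of all genes.

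The members lie in gene-dense surroundings. The length of genome nearest to a member was 16.5 kb at the median, beside 45 kb over all genes. Per Mb of that length the members together had 78.6 and 85.8 distal peaks, beside 43.9 and 61.0 over all genes. That total was 405 peaks in replicate 1 and 442 in replicate 2, of which the 7 members with most held 63.2% and 65.2%. The 7 were picked in each library on its own. Rps12, with 21 and 13 peaks, was among them in replicate 1 only. Rpl10l, with 7 and 28 peaks over 622 kb, was among them in replicate 2 only. The remaining members had 149 and 154 peaks over 2.39 and 1.99 Mb, or 62.3 and 77.3 per Mb. These 2 densities therefore do not cover the same members.

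**Figure D5:**
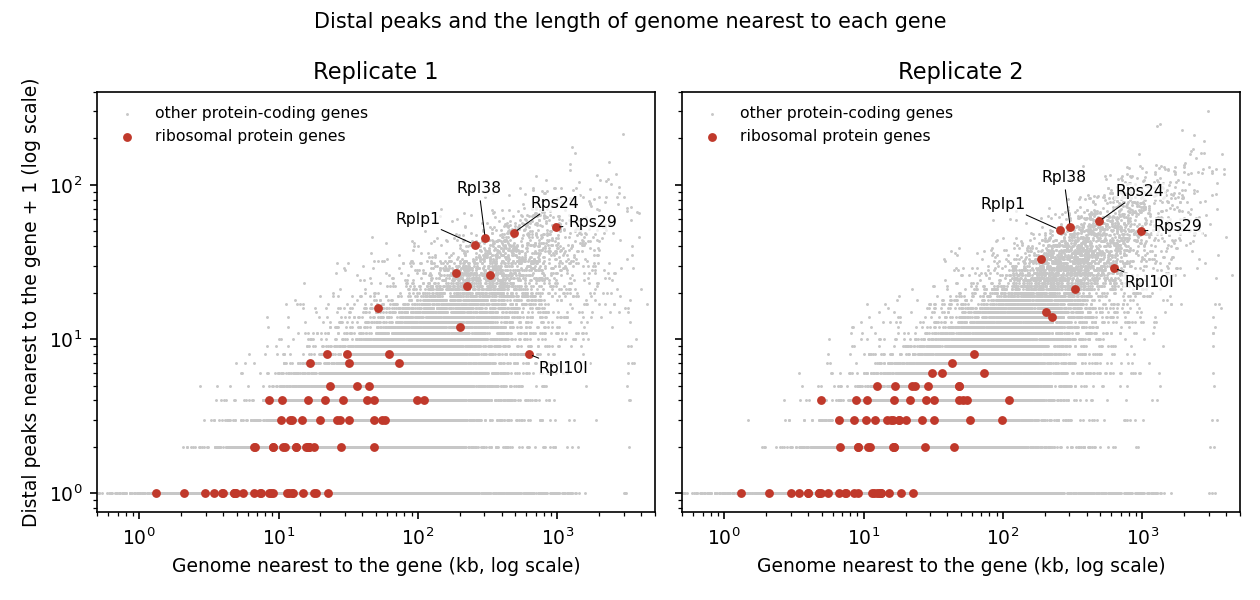
Number of distal peaks nearest to a gene plus 1 (vertical, log scale) against the length of genome nearest to the gene (horizontal, kb, log scale) in each library, with ribosomal protein genes in red and the other protein-coding genes in grey. Rps29, Rps24, Rpl38 and Rplp1 hold the most among the members, and Rpl10l has 7 in replicate 1 and 28 in replicate 2 for its 622 kb.

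Rps29 had 52 and 49 distal peaks over 973 kb, with median ranks of 12.4 and 23.2, and 22 of its peaks in each library were overlapped by one of the other. Rps24 had 48 and 57 over 488 kb, with median ranks of 49.7 and 56.5. Rpl38 had 44 and 52 over 304 kb, at 51.5 and 57.1. The peaks around Rps29 were thus about as many as those around Rps24, with lower median ranks in both libraries. In replicate 1 they included a close cluster at chr12:68922756-68927785 with scores of 3 to 6. None of that cluster was overlapped by a peak of replicate 2, and it raised the count and lowered the median in replicate 1.

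Rplp1 had 40 and 50 distal peaks over 256 kb and Rpl14 had 26 and 32 over 187 kb, of which 24 and 22 were shared. The closed copy Rpl10l had 7 and 28 over 622 kb, of which 6 in each were shared. Rpl5 had 15 in replicate 1 and 3 in replicate 2, and 2 in each were shared; the unshared ones in replicate 1 were weak, the median rank of all 15 being 3.8. Of all distal peaks of the members 66.9% and 59.3% were shared, beside 71.2% and 49.9% over all genes.

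The 5 strongest distal peaks found in both libraries are shown to make these sites legible, on the plus strand of GRCm38.p6, 150 bases each. Capitals mark the CTCF core AGNNGGCGC on either strand and, chosen after the values were seen, the homeodomain letters TAATTA and the E-box CAGCTG.
Rps24, chr14:24779196-24779345, plus strand: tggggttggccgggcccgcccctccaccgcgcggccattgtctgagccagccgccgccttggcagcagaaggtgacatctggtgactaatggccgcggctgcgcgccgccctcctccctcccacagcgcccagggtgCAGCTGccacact
Rpl12, chr2:32966856-32967005, plus strand: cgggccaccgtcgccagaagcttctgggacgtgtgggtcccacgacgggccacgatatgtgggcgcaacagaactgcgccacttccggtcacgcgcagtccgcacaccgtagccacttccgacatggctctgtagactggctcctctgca
Rpl34, chr3:130818816-130818965, plus strand: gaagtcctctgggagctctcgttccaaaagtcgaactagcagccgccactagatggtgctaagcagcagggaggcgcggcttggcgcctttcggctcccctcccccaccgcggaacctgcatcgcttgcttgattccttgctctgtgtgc
Rplp1, chr9:61898536-61898685, plus strand: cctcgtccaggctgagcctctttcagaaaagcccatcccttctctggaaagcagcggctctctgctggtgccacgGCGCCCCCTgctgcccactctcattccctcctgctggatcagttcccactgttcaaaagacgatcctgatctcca
Rpl14, chr9:120602956-120603105, plus strand: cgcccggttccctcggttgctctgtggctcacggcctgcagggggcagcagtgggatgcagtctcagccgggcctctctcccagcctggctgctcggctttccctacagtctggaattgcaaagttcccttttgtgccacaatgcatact

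The peak near Rps24 had scores of 119 and 138 and ranks of 97.3 and 98.9; it lay 288 kb from the nearest TSS of Rps24, in an intron of the gene 4930428N03Rik. That near Rpl12 ranked 94.4 and 98.0 and lay 4.67 kb away. The peak of Rpl34 ranked 93.6 and 96.8 at 88.5 kb. The peaks other than that near Rps24 lay between genes.

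The peak of Rplp1 ranked 93.2 and 96.4 at 15.9 kb and held the CTCF core, and that of Rpl14 ranked 93.0 and 93.4 at 29.4 kb. Over all distal peaks of the members, 4.20% and 4.07% held the CTCF core, beside 4.48% and 3.63% of all distal peaks. Their median rank was 45.5 and 51.7, beside 43.2 and 44.4. The middle part of the members' distal peaks, from the lower to the upper quartile, spread over ranks of 20.2 to 70.2 and 29.7 to 76.4.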

How the data were processed

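DNase-seq was measured in 2 libraries of 1 group. The authors deposited peak lists and hotspot lists on mm10, per the labels, with separate calls for each replicate according to the file lists. Which aligner and caller were used is not given in the sources used here. Peak lists were used through 1 column, a score deposited by the authors without a stated unit (whole numbers, in 12.1% and 7.80% of peaks written in decimal form). The hotspot column is a −log10 false discovery rate deposited by the authors, with a lowest value of 1.30 and a ceiling of 100. Exact duplicate lines, 34 and 56, were removed.

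Genes and start sites came from GENCODE M21 on GRCm38, the assembly of mm10, and promoter sequences and starts from the RefSeq table (GRCm38.p6), which held 60 of 80 members. Peaks were ranked within each library, and overlap was at least 1 bp. Genes named were members not open, the 5 highest and 3 lowest of each subunit by the lower rank, the stalk genes, copies, known mutants, the members with most promoter or distal peaks or the widest rank gaps, and the 5 strongest shared distal peaks. A few genes that the rule or lists take are not reported here by name. The members and lists were chosen with earlier results of these data known. Chromosome X was singled out after ranks were seen. Intervals are exact Clopper-Pearson and cover counting of genes only. Python 3.11.15, pandas 2.3.3, numpy 2.4.6, scipy 1.17.1 and matplotlib were used, and the scripts were tested on simulated data. Alternatives changed the windows, the ranks, the score filter, the start sites and the members.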

Additional observations from a re-analysis of the deposited data

How the results depend on the processing

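Each of the 6 counts and medians was recomputed under alternatives, 40 values in all, and 34 stayed within the spread between libraries or within 1.5 times the count. For the medians, leaving out 1 of 2 libraries cannot exceed the SD between them, so those values are no check. The RefSeq count of pyrimidine runs, 28 of 60 members, was set against 26 of 80 as a raw count, although the totals differ. The median number of distal peaks, 1.5, became 0 where distal peaks had to be beyond 10 kb and 0 where the nearest TSS was taken over all annotated genes. The median offset of -7 bp became -38 bp from the nearest annotated TSS. The median rank of 97.9 became 91.1 among protein-coding promoter peaks alone and 95.8 in the stronger part of the peaks, whose scale starts higher by construction. The 26 members with a pyrimidine run became 13 with a limit of 10 bases. Leaving out each library in turn gave 77 to 77 open members, ranks of 97.5 to 98.2, offsets of -7 to -7, 1.00 to 2.00 distal peaks and 73 to 74 members in hotspots. Counting the 5′ end of the gene only left 74 open members, and the share over all genes under that rule is not given here. The RefSeq starts, the unshared windows and the set without 7 members were chosen after seeing the data. No paired analysis was possible because there is 1 group. Depth is unknown, and a missing peak shows only that none passed the authors' threshold.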

Other observations

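The 4 members on chromosome X were Rpl10, Rpl36a, Rpl39 and Rps4x, a grouping chosen after their ranks were seen. Rpl10, which joins the large subunit late in the cytoplasm, ranked 96.32 and 95.19, Rpl36a ranked 95.17 and 95.19, and Rpl39 and Rps4x ranked 90.80 and 95.91 and 93.65 and 96.37. Their medians of 94.41 and 95.55 lay below those of the 73 open autosomal members, 97.51 and 98.45. The other open protein-coding genes on X also had lower medians, 87.80 and 90.37, than those on the autosomes, 95.17 and 96.14. The tissue was pooled from males and females, and the part of X copy number in these ranks was not tested. Rpl36al, the autosomal copy of Rpl36a, ranked 99.67 and 99.77, while Rpl10l and Rpl39l, the autosomal copies of the X-linked Rpl10 and Rpl39, had no promoter peak.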
